A study of Caenorhabditis elegans with 2 samples.

Results

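DNA replication genes of the nematode Caenorhabditis elegans were chosen by their symbols, and 32 of the 19973 nuclear protein-coding genes of the annotation met the rule. The rule took genes named mcm, orc, psf, sld, rpa, pcn, rfc, cdt, pri or div with a number, together with cdc-6 and cdc-45, of which cdc-45 matched no symbol. That gene may carry another symbol in the annotation and was not looked up under one, so the helicase genes counted here do not include it. By role they were 9 genes of origin recognition and licensing (orc-1 to orc-5, cdc-6, cdt-1, sld-2 and mcm-10), 10 of the helicase (mcm-2 to mcm-7, psf-1 to psf-3 and sld-5), 5 of the sliding clamp and its loader (pcn-1 and rfc-1 to rfc-4), 3 of primase and polymerase alpha (pri-1, pri-2 and div-1) and 3 of single-strand binding (rpa-1, rpa-2 and rpa-4). The pattern also took cdt-2, a receptor of a ubiquitin ligase that degrades replication proteins, and mcm-3AP, named for a protein that associates with MCM3, and both were kept apart from the roles.

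The series mapped the product of attf-3, whose name stands for an AT-hook transcription factor, by chromatin immunoprecipitation with sequencing (ChIP-seq). All worms were of strain RW12296, whose CRISPR-made allele st12296 places TY1, EGFP and 3xFLAG sequences at attf-3 on chromosome III, and the precipitation used an antibody against GFP. The worms were whole young adults at 63 hours, synchronised by starving larvae hatched from bleached adults, in 1 group of 2 biological replicates, so no test between conditions was possible. Whole worms of 1 edited strain mix germline and somatic nuclei, and a signal cannot be assigned to a tissue. No untagged group was analysed here. The files hold peaks and no read counts, so the depth of each replicate is unknown. A gene was counted as bound when a summit of the joint list, the conservative list of 1737 peaks made from both replicates, lay at most 500 bp from its 5' end. Positions are on ce11 and count from 1, distances below 0 are upstream of the 5' end, and intervals are 95% Wilson intervals that cover counting error over genes only.

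Replication starts where the origin recognition complex, with CDC-6 and CDT-1, loads the ring of MCM proteins onto DNA. GINS proteins join the ring to make the active helicase, primase with polymerase alpha lays down the first primers, and the replication factor C complex loads the PCNA clamp that holds the main polymerases on the template. Many of these genes are transcribed together in dividing cells, which in the worm include those of the germline, and E2F proteins are among their known regulators in animals.

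The sequence under the summit is shown for 6 of the bound genes, as the summit base and 50 bases on either side, read on the gene's strand. The first 4 are genes of 3 roles whose peaks were in the lists of both replicates, and mcm-3 and mcm-7 are bound helicase genes with a match to an E2F form at the summit. The bases come from the RefSeq copy of WBcel235, which is the assembly ce11. Capitals mark matches to the searched motifs on either strand, GCGCGAAA being the other strand of TTTCGCGC and AATTTT that of AAAATT.
orc-5, chrIV:10734673-10734773, minus strand: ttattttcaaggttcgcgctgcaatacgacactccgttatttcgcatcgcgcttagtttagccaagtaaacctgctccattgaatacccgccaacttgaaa
rfc-4, chrIII:6972036-6972136, plus strand: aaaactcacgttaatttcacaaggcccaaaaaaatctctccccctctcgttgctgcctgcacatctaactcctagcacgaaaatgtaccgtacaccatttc
pcn-1, chrIV:4049662-4049762, minus strand: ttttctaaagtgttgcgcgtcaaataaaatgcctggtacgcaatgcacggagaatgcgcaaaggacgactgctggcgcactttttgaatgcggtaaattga
mcm-2, chrII:12006849-12006949, minus strand: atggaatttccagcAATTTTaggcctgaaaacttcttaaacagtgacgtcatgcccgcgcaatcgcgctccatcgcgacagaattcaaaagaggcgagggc
mcm-3, chrV:15059694-15059794, minus strand: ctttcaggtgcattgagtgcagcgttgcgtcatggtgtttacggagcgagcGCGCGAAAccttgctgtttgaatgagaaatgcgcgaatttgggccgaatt
mcm-7, chrV:4346950-4347050, plus strand: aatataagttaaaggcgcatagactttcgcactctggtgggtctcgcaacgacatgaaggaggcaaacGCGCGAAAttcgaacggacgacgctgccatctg
The 4 windows of orc-5, rfc-4, pcn-1 and mcm-2 held no E2F form, and of these only mcm-2 held a match to any motif searched.

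In the joint list 12 of the 32 genes were bound (37.5%, 22.9 to 54.7%), against 1200 of the 19941 other protein-coding genes (6.02%) and 6.07% of all protein-coding genes. Without cdt-2 and mcm-3AP the count was 10 of 30 (33.3%, 19.2 to 51.2%). Each of the 12 genes had its own peak. Bound genes were found among the helicase genes (5 of 10, 50%, 23.7 to 76.3%), the clamp genes (2 of 5, 40%, 11.8 to 76.9%), the primase genes (1 of 3, 33.3%, 6.15 to 79.2%) and the origin genes (2 of 9, 22.2%, 6.32 to 54.7%), and none of the 3 single-strand binding genes was bound. The Wilson interval of this 0 of 3 ends at 56.1%, and the coarser limit of 3 counts of the total at 100%. The intervals of the roles overlap, so these counts do not order the roles.

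**Figure D1:**
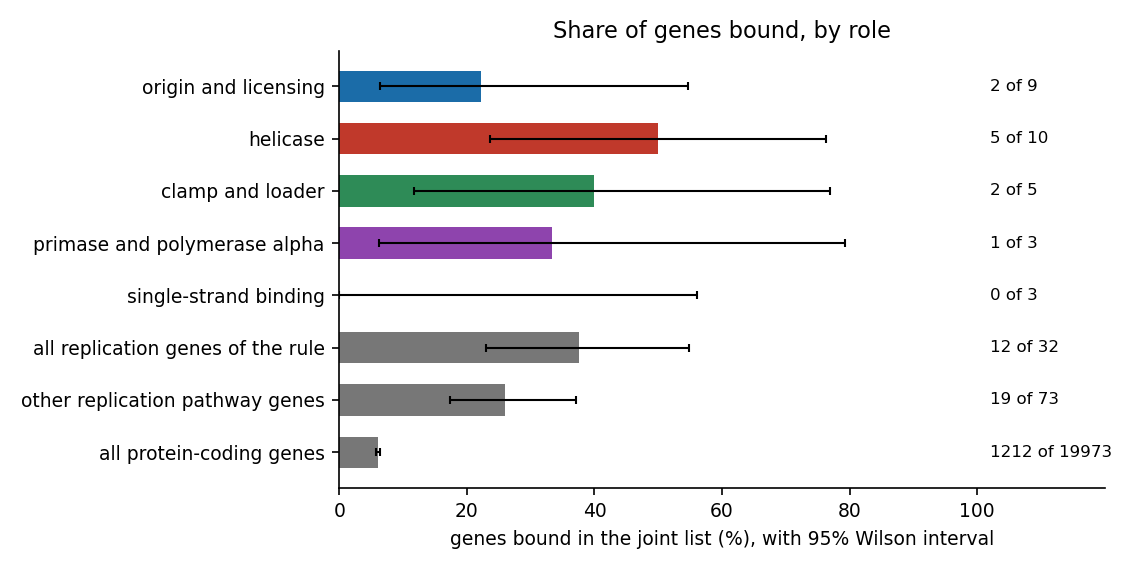
Share of genes bound in the joint list (horizontal axis, percent) by role, for all 32 replication genes, for 73 other genes of the replication pathway and for all protein-coding genes, with 95% Wilson intervals as lines and counts at the right. The intervals of the 5 roles overlap, and the interval of the 32 genes, 22.9 to 54.7%, lies above the 6.07% of all genes.

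The replicates' own thresholded lists gave 8 of 32 in replicate 1 (25%, 13.3 to 42.1%), against 4.03% of all protein-coding genes, and 9 of 32 in replicate 2 (28.1%, 15.6 to 45.4%), against 4.4%. Of the helicase genes, which had 5 bound in the joint list, 1 was bound in replicate 1 and 2 in replicate 2, and 3 were bound among the stronger 868 peaks of the joint list. The clamp and primase counts were 2 of 5 and 1 of 3 in both replicates. The origin count was 2 of 9 in each, but only orc-5 was in both, with mcm-10 in replicate 1 and cdc-6 in replicate 2.

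Among the origin genes, orc-5 (WBGene00013857), which encodes a subunit of the origin recognition complex, had the highest signal of all 32 genes. Its peak (chromosome IV, 10734551 to 10734923) had its summit 135 bp upstream of the 5' end and outside any protein-coding gene. The signal, a value from the authors whose scale is not stated, was 1842.94 in the joint list (rank 18 of 1737), 843.44 in replicate 1 and 1017.72 in replicate 2. It was among the 20 strongest peaks of both replicates' own lists, with ranks of 20 of 964 and 17 of 1063.

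The other bound origin gene, cdc-6 (WBGene00000382), which encodes the ATPase that loads the helicase together with CDT-1, had a weak peak (chromosome I, 4270377 to 4270696) with the summit at -250 bp. The signal was 109.62 in the joint list (rank 1045), 46.45 in replicate 1 and 66.37 in replicate 2, and only the list of replicate 2 held the peak. The joint list's median signal was 122.82, so this peak lay in its weaker part.

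Of the helicase genes, 4 of the 6 MCM ring genes and 1 of the 4 GINS genes were bound. The peak at mcm-2 (WBGene00003154, chromosome II, 12006739 to 12007058, summit at -274 bp) was the strongest of the 5, with signals of 214.00 in the joint list (rank 426), 106.09 in replicate 1 and 102.15 in replicate 2. It was the only helicase peak in the lists of both replicates, and its summit lay farther from the 5' end than that of any other bound gene of the 32. The peak at mcm-4 (WBGene00003156, chromosome I, 2321790 to 2322109, -133 bp) had signals of 150.67 in the joint list (rank 653), 77.53 in replicate 1 and 76.45 in replicate 2. Its 2 replicate values were nearly equal, and it was in neither replicate's thresholded list.

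The GINS gene psf-1 (WBGene00011275, chromosome II, 9968338 to 9968657, -175 bp) had signals of 141.53 in the joint list (rank 709), 59.21 in replicate 1 and 78.71 in replicate 2, where it was also in the list. At mcm-3 (WBGene00003155, chromosome V, 15059584 to 15059903, -145 bp) they were 112.16 (rank 1001), 52.64 and 55.56 in the joint list, replicate 1 and replicate 2. At mcm-7 (WBGene00003159, chromosome V, 4346840 to 4347159, -166 bp) they were 102.3 (rank 1162), 48.39 and 58.08. The mcm-3 and mcm-7 peaks lay under the joint list's median signal, and neither replicate's thresholded list held them.

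The clamp itself and 1 of the 4 loader genes were bound. At rfc-4 (WBGene00004340), a subunit of the clamp loader, the peak (chromosome III, 6971960 to 6972219, -167 bp) had signals of 712.32 in the joint list (rank 142), 331.77 in replicate 1 and 375.25 in replicate 2. At pcn-1 (WBGene00003955), which encodes PCNA, the peak (chromosome IV, 4049663 to 4049784, -264 bp) had signals of 247.89 (rank 374), 132.24 and 113.66. Both peaks were in the lists of both replicates, and each was stronger than any helicase peak.

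Of the primase genes, pri-2 (WBGene00004181), the large subunit of primase, had the second highest signal of the 32 genes. Its peak (chromosome I, 12532060 to 12532616, -223 bp) had signals of 1323.17 in the joint list (rank 45), 611.68 in replicate 1 and 677.69 in replicate 2, and it was in both lists. The genes kept apart were both in both lists too. The signals were 680.68 (rank 155), 322.57 and 360.73 at cdt-2 (WBGene00011318, chromosome V, 14990906 to 14991184) and 255.85 (rank 361), 97.96 and 162.36 at mcm-3AP (WBGene00017642, chromosome IV, 7948440 to 7948577, -177 bp). The cdt-2 summit was the only 1 of the 12 that lay downstream of the 5' end, at 76 bp and inside the 5' UTR, and the remaining 11 lay outside protein-coding genes.

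**Figure D2:**
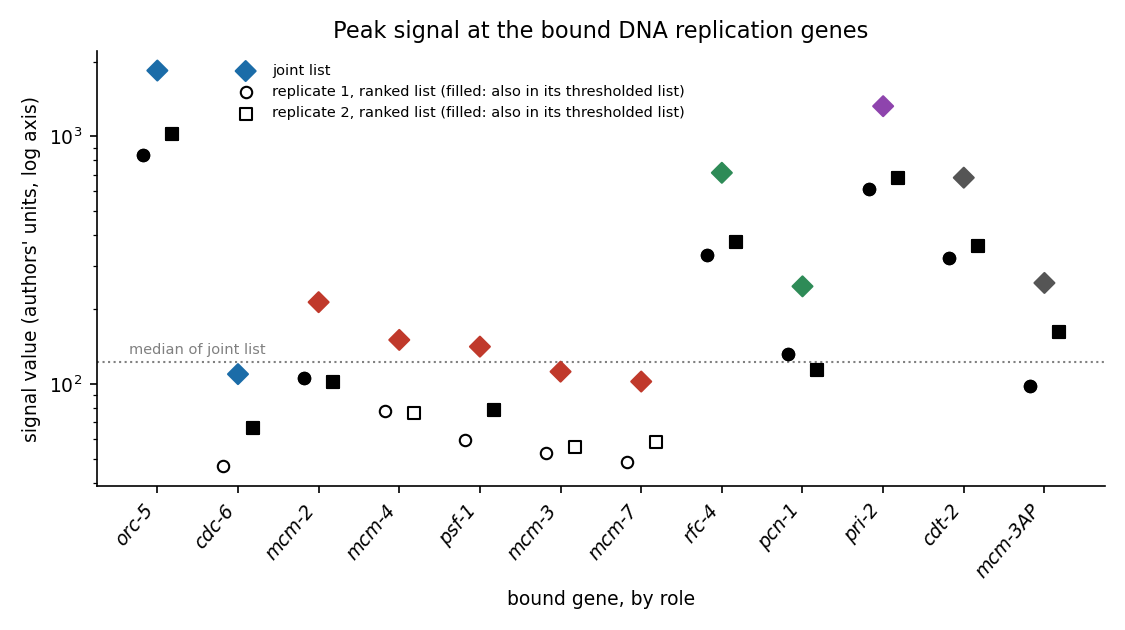
Peak signal (vertical log axis, in the authors' units) at the 12 bound genes, ordered by role and then by signal, in the joint list (diamonds, coloured by role) and in the ranked lists of replicate 1 (circles) and replicate 2 (squares), where filled marks were also in that replicate's thresholded list. Signals spanned 102.3 to 1842.94 in the joint list, and the open marks gather at genes with joint signals of 150.67 and less.

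Over the 12 bound genes the median joint signal was 230.94, against 154.97 over the 1200 other bound genes, and both sets spanned wide ranges (102.3 to 1842.94, against 3.22 to 5279.66). Summits lay at a median of -171 bp (quartiles -229.75 and -142.5) at the replication genes and of -179.5 bp (quartiles -283.25 and -88) at the other bound genes. They were upstream at 11 of 12 (91.7%) and at 1070 of 1200 (89.2%). The median position and the upstream share were thus similar in both sets, while the quartiles lay closer together at the replication genes.

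The peak was in the lists of both replicates at 7 of the 12 bound genes (58.3%) and at 661 of 1200 other bound genes (55.1%). The 7 were those with the highest joint signals, down to 214.00 at mcm-2. Of the rest, psf-1 and cdc-6 were in the list of replicate 2 alone, and mcm-4, mcm-3 and mcm-7 in neither (25%, against 22.5% of the other bound genes). All 3 genes of the last kind are MCM ring genes.

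The ranked lists, which hold peaks before the threshold, showed where the unlisted genes stood. A ranked peak lay at most 500 bp from the 5' end of 26 of the 32 genes in replicate 1 (81.3%), against 42.3% of all protein-coding genes, and of 24 of 32 in replicate 2 (75%), against 40.7%. All 12 bound genes had one in both replicates, with median signals of 102.0 in replicate 1 and 107.9 in replicate 2. Bound genes were chosen by a list made from both replicates, so these peaks and their higher signals follow from that choice. Of the 20 unbound genes, 10 had one in both replicates, 6 in 1 replicate only and 4 in neither. Their median signals were 28.4 over 14 genes in replicate 1 and 29.3 over 12 genes in replicate 2, near the medians of all protein-coding genes with a ranked peak (24.4 and 26.4).

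**Figure D3:**
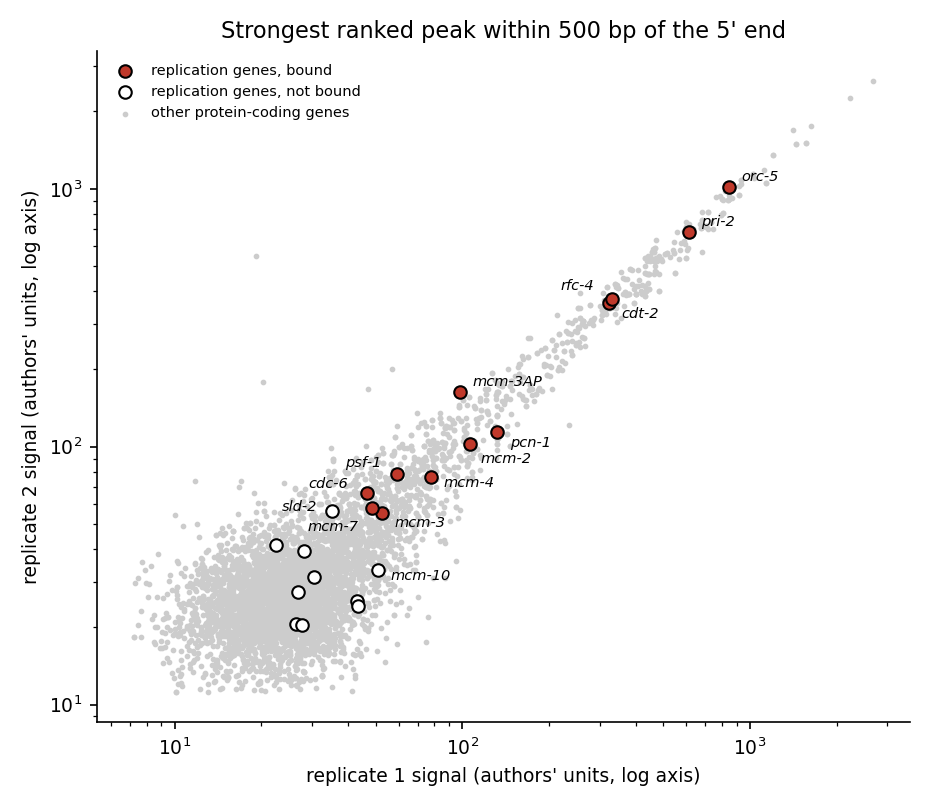
Signal of the strongest ranked peak within 500 bp of the 5' end in replicate 1 (horizontal log axis) and replicate 2 (vertical log axis), in the authors' units, for replication genes bound in the joint list (red), replication genes not bound (white) and the other protein-coding genes with such a peak in both replicates (grey). The bound genes run from the edge of the grey cloud at mcm-7 and mcm-3 to orc-5 near the top, and the unbound sld-2 and mcm-10 lie nearest to them. Bound genes were chosen by a list made from both replicates, so their place above the unbound genes follows from that choice.

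Of the 7 unbound origin genes, 2 came near the threshold. At sld-2, an initiation factor that acts with cyclin-dependent kinase, ranked peaks lay at -131 bp in replicate 1 (signal 35.29) and at -130 bp in replicate 2 (56.34). The ranked list of both replicates gave a signal of 90.71 and a −log10 IDR of 1.92, where the thresholded list needs 2. IDR, the irreproducible discovery rate, measures how far a pair of rankings disagree about a peak. At mcm-10, which helps activate the helicase, the signals were 50.86 in replicate 1, whose thresholded list held the peak, and 33.27 in replicate 2, with a −log10 IDR of 1.37 over both.

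The remaining origin genes had a ranked peak at the 5' end in replicate 1 alone or in neither replicate. The origin recognition genes orc-1 and orc-4, which lie head to tail, and cdt-1, whose protein brings in the helicase, had no ranked peak there in either replicate, and their nearest joint summits were 64092, 61051 and 29058 bp away. A ranked peak in replicate 1 alone was found at orc-2 (41.27) and orc-3 (27.52). The nearest joint summit to orc-2 lay 1196 bp upstream, at the 5' ends of cyn-4 and copz-1, and that to orc-3 was 65189 bp away. The gene orc-2 lies 134 bp downstream of copz-1 on the same strand, and whether that peak serves both genes was not tested. Thus, counted at annotated 5' ends, orc-5 alone of the 5 genes of the origin recognition complex was bound.

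Of the 5 unbound helicase genes, 4 had ranked peaks in both replicates. The signals in replicate 1 and replicate 2 were 30.45 and 31.13 at mcm-5, 22.51 and 41.44 at mcm-6, 43.28 and 24.23 at psf-2, and 26.39 and 20.53 at psf-3. The peaks at psf-2 lay on either side of the 5' end, at -315 bp in replicate 1 and 316 bp in replicate 2. All were under the lowest replicate values of a bound gene (46.45 in replicate 1 and 55.56 in replicate 2). The GINS gene sld-5 had none, and its nearest joint summit was 149102 bp away, the farthest of the 32. At psf-3 the nearest joint summit lay 961 bp downstream, close to the 5' end of icd-2. At mcm-5, mcm-6 and psf-2 it was 22372, 10838 and 10820 bp away.

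Of the clamp loader genes, rfc-1 (26.86 and 27.39) and rfc-2 (28.09 and 39.30) had ranked signals in replicate 1 and replicate 2, and rfc-3 (28.74) in replicate 1 only. A joint peak lay inside rfc-3, with its summit in a coding exon 1128 bp from the 5' end and a signal of 104.08 (rank 1126). The nearest joint summits to rfc-1 and rfc-2 were 39796 and 10951 bp away. Of the primase genes, div-1, the regulatory subunit of polymerase alpha, had 43.18 and 25.24, and pri-1, the small subunit of primase, had 36.99 in replicate 2 only. Their nearest joint summits were 22372 and 2827 bp away.

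Of the 3 single-strand binding genes, which encode subunits of replication protein A, rpa-2 missed the distance limit by least of all unbound genes. At rpa-2 a strong joint peak (chromosome I, 4769516 to 4769790, signal 699.85, rank 147) had its summit 650 bp upstream, with no other protein-coding 5' end at most 500 bp away and no non-coding gene within 200 bp. Of the genes inside the limit, mcm-2 was the farthest at 274 bp, so no gene of the 32 lay between these distances. At rpa-1 the ranked signals were 27.67 and 20.36 in replicate 1 and replicate 2, and at rpa-4 24.24 in replicate 1 only, with the nearest joint summits 44191 and 25709 bp away.

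**Figure D4:**
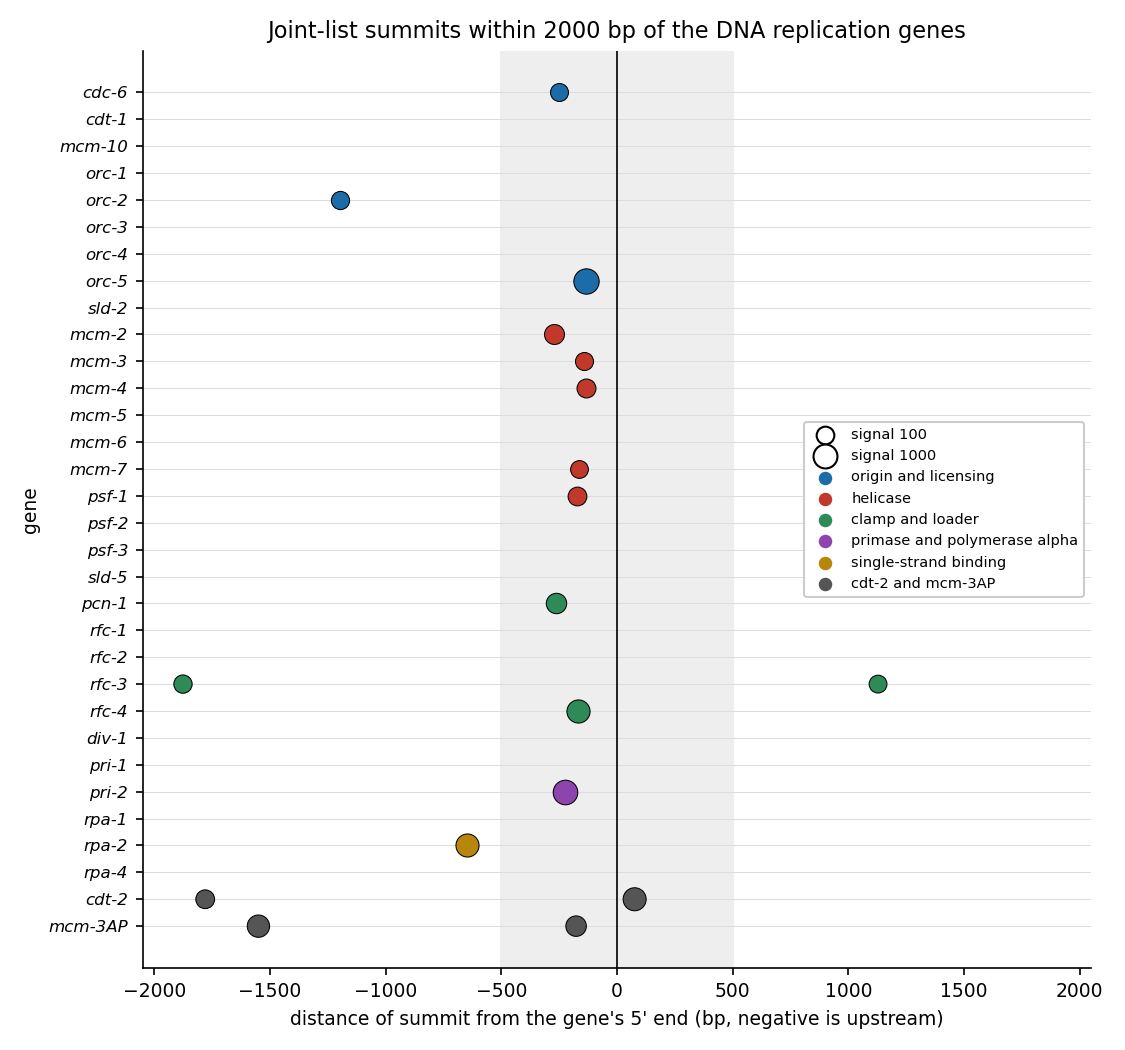
Distance of every joint summit within 2000 bp (horizontal axis, bp from the 5' end, negative upstream) for each of the 32 genes, grouped and coloured by role, with circle size by signal and the 500 bp window in grey. The 12 bound genes cluster between -274 and -133 bp with the exception of cdt-2 at 76 bp, and rpa-2 has a strong summit at -650 bp.

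At 7 of the 12 bound genes (58.3%) another protein-coding 5' end lay at most 500 bp from the same summit, against 565 of 1200 other bound genes (47.1%). All 7 partners were transcribed from the opposite strand, so that the peak lay in or at a divergent promoter, and which gene of a pair the signal belongs to was not tested. The orc-5 summit was 493 bp from the 5' end of cyb-1, which encodes a cyclin B. The rfc-4 summit was 374 bp from that of eef-1A.1, a translation elongation factor gene. The partners of pri-2, psf-1 and cdt-2 were W02D9.2 (384 bp), R53.4 (449 bp) and T01C3.2 (118 bp), and in all of these the summit lay nearer to the replication gene.

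The summit lay nearer to the partner in 2 pairs. It was 250 bp from cdc-6 and 129 bp from its partner acin-1, and 145 bp from mcm-3 and 64 bp from its partner C25D7.15. With each peak given to its nearest gene only, 10 of the 32 genes were bound, without these 2. The count of shared promoters was 3 with a window of 250 bp and 4 in the list of replicate 1. The 5' ends of the pairs were 42 bp (cdt-2) to 628 bp (orc-5) apart.

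The 7 bound genes with a shared promoter had a median signal of 680.68 (109.62 to 1842.94), and the 5 without, mcm-2, mcm-4, mcm-7, pcn-1 and mcm-3AP, had 214.00 (102.3 to 255.85). The 4 strongest peaks, at orc-5, pri-2, rfc-4 and cdt-2, were all shared, and so were 3 of the 4 weakest, at psf-1, mcm-3 and cdc-6. Of the shared peaks 4 of 7 were in the lists of both replicates, and of the others 3 of 5. The next gene upstream was on the opposite strand at 9 of the 12 bound and 12 of the 20 unbound genes, at median gaps of 581.5 and 741.5 bp to the next gene on either strand. Strands and gaps were not recorded over all protein-coding genes, so these values have no background beside them.

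Of 84 further symbols of the replication pathway that the rule leaves out, 73 were in the annotation. In the joint list 19 of these genes were bound (26.0%, 17.3 to 37.1%), against 6.07% of all protein-coding genes. Replicate 1's own list gave 14 of the 73, against 4.03% of all protein-coding genes, and replicate 2's own list 16, against 4.4%. The gene pole-1 was in the list of replicate 2 but not in the joint list. Of the 19 bound genes, clsp-1, exo-1, pola-1 and rnh-2 were in neither replicate's list. The E2F partner gene dpl-1 (769.09) and the retinoblastoma-like gene lin-35 (189.03) were bound among 5 E2F and pocket protein genes. Of the 2 other genes of the cdt-2 ligase, its cullin cul-4 (187.07) was bound. Of 10 initiation genes dnsn-1 (139.2) was bound, and of 10 helicase unloading genes cdc-48.1 (904.19), the ATPase that extracts the helicase after replication.

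Fork and checkpoint genes were bound at 5 of 14, with the checkpoint kinase gene chk-1 (1337.31) far above ctf-4 (216.92), hpr-17 (182.77), tim-1 (173.65) and clsp-1 (124.4). Polymerase genes were bound at 3 of 9, namely polh-1 (349.49), polk-1 (128.95) and the polymerase alpha gene pola-1 (85.73). Genes of the lagging strand and topology were bound at 3 of 9, with the topoisomerase gene top-2 (336.52) above exo-1 (91.11) and rnh-2 (86.81), and chromatin assembly genes at 3 of 9, with unc-85 (346.68), lin-53 (211.18) and chaf-2 (171.04). None of 5 nucleotide supply genes was bound, with a Wilson upper bound of 43.4% and a limit by 3 counts of the total of 60%. At 12 of the 19 bound pathway genes another protein-coding 5' end lay at most 500 bp from the summit. The same held at 572 of all 1212 bound genes (47.2%). The pairs were chaf-2 with Y71G12B.30, clsp-1 with eef-2, ctf-4 with eef-1G, dnsn-1 with C24H12.4, hpr-17 with F32A11.1, lin-35 with vps-51, lin-53 with nra-2, pola-1 with Y47D3A.1, polh-1 with rps-22, polk-1 with gpr-1, tim-1 with Y75B8A.23 and top-2 with npp-3.

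The windows of 50 bp on either side of the 12 summits had a median AT content of 52.5% (41.6% at mcm-3AP to 74.3% at pri-2), against 53.5% at the summits of 967 other promoter peaks. Windows of the same length around the position 171 bp upstream of every protein-coding gene had 66.3%, and the nuclear genome 64.6%. The longest run of A and T had a median of 7 bases at both the replication genes (4 to 13) and the other promoter peaks. The replication gene summits thus had the lower AT content that the other promoter peaks had.

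The E2F forms TTTCCCGC, TTTGGCGC, TTTGCCGC and TTTCGCGC were searched on both strands in the 300 bp from 250 bp upstream to 50 bp downstream of the 5' end. At least 1 of them was found in 14 of the 32 replication genes (43.8%) and in 936 of all 19973 protein-coding genes (4.69%). Bound and unbound replication genes had them at 5 of 12 (41.7%) and 9 of 20 (45%). The bound summits at mcm-2 (-274 bp) and pcn-1 (-264 bp) lay beyond the upstream end of this window, so a form near a summit can be missed. Over all genes they were in 123 of 1212 bound genes (10.1%) and 813 of 18761 genes that were not bound (4.33%), and in 22 of 73 other pathway genes (30.1%).

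Within 50 bp of the summit an E2F form was found at 3 of the 12 bound genes (25%), against 81 of 967 other promoter peaks (8.38%), 123 of all 1737 peaks (7.08%) and 375 of 19973 windows 171 bp upstream of each gene (1.88%). All 3 genes, mcm-3, mcm-4 and mcm-7, belong to the MCM ring, and all 3 had TTTCGCGC on the other strand of the gene. Base 4 of the match, counted along the gene's strand, lay 4, 5 and 21 bp from the summit, as the capitals in the mcm-3 and mcm-7 windows show for these genes. They are also the 3 bound genes that were in neither replicate's list. The other bound genes with a form in the promoter, pcn-1 and pri-2, had it 79 and 163 bp from the summit. With 100 bp on either side of the summit, a form was found at 5 of the 12 bound genes and at 116 of 967 other promoter peaks. The promoter positions account for mcm-3, mcm-4, mcm-7 and pcn-1 among these 5, and the remaining gene was not recorded by name. At the unbound sld-2 the form TTTGGCGC lay at -131 bp, and the ranked summits of replicate 1 and replicate 2 at -131 and -130 bp. The sld-2 summit over both replicates lay at -109 bp, and the gene is 1 of 9 unbound genes with a form. At mcm-5 the form and the 2 summits lay at -191, 247 and 263 bp. They lay at -7, 7 and 112 bp at rfc-1, and at -87, -64 and -131 bp at rfc-2. Forms at mcm-6 (-117 and -244 bp) had summits at -227 and -210 bp, and forms at rpa-1 (-137 and -104 bp) at -86 and 13 bp. The form at rpa-2 (-228 bp) had a summit at -63 bp in replicate 2 only, and cdt-1 and orc-1 had no ranked peak.

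The AT-rich words AAATTT and AAAATT and the words TCCCGC, which TTTCCCGC contains, and CTGCGTC were searched in the same summit and promoter windows. AAAATT, which can overlap AAATTT, was found at 3 of 12 summits (25%; cdc-6, mcm-2 and pri-2) and at 281 of 967 other promoter peaks (29.1%). AAATTT was found at 0 of 12 (Wilson upper bound 24.2%, and 25% by 3 counts of the total), against 165 of 967 (17.1%). TCCCGC and CTGCGTC were also found at 0 of 12, against 104 of 967 (10.8%) and 65 of 967 (6.72%). With 100 bp on either side of the summit, TCCCGC was found at 2 of 12 (16.7%) and at 131 of 967 other promoter peaks (13.5%). In these wider windows AAATTT was found at 2 of 12 (16.7%) and 360 of 967 (37.2%), and AAAATT at 7 of 12 (58.3%) and 604 of 967 (62.5%). CTGCGTC was found there at 0 of 12 and at 88 of 967 (9.10%). In the promoter windows, TCCCGC was found in 9 of the 32 replication genes (28.1%) and in 6.49% of all protein-coding genes, AAATTT in 20 of 32 (62.5%) and 53.0%, AAAATT in 31 of 32 (96.9%) and 76.2%, and CTGCGTC in 2 of 32 (6.25%) and 4.34%. A match or its absence describes these letters in these windows and nothing about which protein binds there.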

How the data were processed

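ChIP-seq peaks of 1 group with 2 biological replicates were analysed. Chromatin was sonicated and fragments spanned 200 to 800 bp, per the labels. An aligner and a peak caller were not given in the sources used here. Deposited lists hold a signal value per peak on a scale the authors do not state, a scaled IDR score capped at 1000, the offset of the summit from the start of the peak and, in the ranked lists, the −log10 of the global IDR, judged from the authors' column order. By the deposited scores, the thresholded lists stop at IDR 0.01. They hold 1737 peaks (joint), 1700 (series list from pooled reads), 964 and 1063 (replicates 1 and 2), and the ranked lists of the replicates hold 43427 and 37734. Replicate signals in 4 unnamed columns of the series' ranked lists were left out.

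Genes came from Ensembl release 115 for WBcel235. The first coding bases of 32 of 32 replication genes read ATG in the genome used. Genes were called bound by summits within 500 bp of the outermost 5' end of the gene, and peaks were shared between lists when they overlapped by 1 bp. Python 3.11.15, pandas 2.3.3 and scipy 1.17.1 were used, and the assignment of summits was tested on simulated data. No p-values were computed. Every gene of the rule is named, with every bound gene of the pathway list and every gene that shares a peak with a replication gene. The genes, lists, motifs and settings were chosen with earlier results of these data known. Alternatives were the pooled list, the stronger 868 peaks, an IDR of at most 0.001, windows of 250 and 1000 bp, the nearest gene only, any transcript's 5' end, each replicate's own list, an overlap of 50% and windows of 100 bp on either side of the summit. The AT content without each replicate was chosen after seeing the data.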

Additional observations from a re-analysis of the deposited data

How the results depend on the processing

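Of 98 values under alternatives, 75 were close to the reported ones, 23 moved and 0 reversed. A count was close when it differed by at most 1.5-fold, so 8 bound genes were close to 12. A median or AT content was close within the standard deviation of the values from the 2 replicates' lists, which is a rough measure. Of the 32 genes, 12 stayed bound with the pooled list and with any transcript's 5' end. Leaving out a replicate gave 8 to 9, which held 7 to 9 of the 12, with mcm-10 gained in the list of replicate 1. The stronger 868 peaks and an IDR of at most 0.001 each left 9, without cdc-6, mcm-3 and mcm-7, with 1 origin and 3 helicase genes. A window of 250 bp left 10, with 1 clamp gene and 3 shared promoters, and one of 1000 bp gave 14, with rpa-2 as 1 single-strand binding gene and psf-3. The nearest gene only left 10, with 1 origin gene. Of all protein-coding genes, 6.01% were bound with the pooled list, 4.03% in the list of replicate 1 and 4.4% in that of replicate 2. Such shares were not recorded for the other settings, so the counts there have no background beside them. Without a replicate, 1 to 2 helicase genes and 4 to 6 shared promoters were left, with median summits at -205.5 to -188 bp. Signals at the bound genes exceeded a median of 77.0% of the joint list, against 63.8% at the 1200 other bound genes. For the bound replication genes this median was 58.4% of the stronger 868 peaks and 63.4% of the peaks at an IDR of at most 0.001. It was 70.8% with the window of 250 bp and 71.7 to 74.4% of a replicate's list. The peaks dropped by the first 2 of these settings are weak by construction. All 12 peaks were in the ranked lists of both replicates, against 7 in the thresholded lists. The first count follows from the joint list, which was made from both replicates. AT content was 59.5% with 100 bp on either side of the summit, 54.5% in the stronger 868 peaks and 54.0 to 55.4% without a replicate. Causes were not tested beyond this. No paired analysis was possible because all samples form 1 group. The lists give no depth, so a gene without a listed peak is not shown to be unbound.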

Other observations

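The word GGGTCTC was noted in the printed and unprinted summit windows after they had been seen, and was then counted on both strands. It was found at 3 of the 12 replication gene summits (25%; mcm-3AP, mcm-7 and psf-1), at 67 of 967 other promoter peaks (6.93%), at 96 of all 1737 peaks (5.53%) and in 221 of 19973 windows of the same length 171 bp upstream of each protein-coding gene (1.11%). Since the word was picked from these windows, its count at the replication genes is a description only.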
